A study of Rattus norvegicus with 15 samples.

Results

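The nuclear genes for the respiratory chain and ATP synthase were followed over the 5 days of culture of primary rat alveolar epithelial type 2 (AT2) cells. A gene was taken where the symbol of its probe begins with Nduf, Uqcr, Cox4, Cox5, Cox6, Cox7, Cox8 or Atp5, or is Sdha, Sdhb, Sdhc or Sdhd. This gave 69 genes, each with 1 probe, out of 22523 probes and 13337 genes with a symbol on the array. They comprised 30 complex I subunits, 7 complex I assembly factors, 4 genes of complex II, 4 of complex III, 11 of complex IV and 13 of complex V, the ATP synthase. The 30 include Ndufs6-ps1, which is annotated as a pseudogene. The rule used symbols only and no measured value, though it was set with earlier results of these data known.

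The cells came from male rats and were left to differentiate towards alveolar type 1 (AT1) cells with nothing else added. RNA was hybridized to Illumina RatRef-12 arrays at D0 (isolated AT2 cells) and at D2, D4, D6 and D8 of culture, with 3 arrays per day and 15 in all. The comparison over the days asks which transcripts move as AT2 cells take on the AT1 phenotype. The labels do not say that the 3 arrays of a day came from separate animals or cultures. A figure legend of the study names separate purifications of the rat cells, but the labels do not assign arrays to them. Preparation was therefore not fitted. The p-values measure only the spread between these arrays, and the number of arrays limits the precision. In such bulk samples, fewer cells of a type and less RNA per cell cannot be told apart.

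Complexes I and II take electrons from NADH and succinate and pass them through ubiquinone to complex III, which hands them by way of cytochrome c to complex IV and oxygen. Complexes I, III and IV pump protons across the inner mitochondrial membrane, and complex V uses their return to make ATP. Most subunits are encoded in the nucleus and the rest by mitochondrial DNA. AT2 cells make and secrete surfactant and are known as cells rich in mitochondria, whereas AT1 cells are thin and spread over most of the gas-exchange surface.

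The arrays lay on 3 slides. Of each day, 2 arrays were on slide 1, which makes 10 in all. The remaining array was on slide 2 for D2 and D4 and on slide 3 for D0, D6 and D8. Arrays are named here by slide and position. Between 7615 and 9787 probes per array were detected, meaning a detection p under 0.01, and the median raw signal ran from 170.8 to 246.8 intensity units. The labelled cell type was borne out at D0 by the AT2 marker list, whose 11 measured genes had a mean level of 13.1 to 13.5 (log2) on the D0 arrays against 8.76 to 9.68 at D8. Of these 11 genes, 8 fell and none rose between D0 and D8, and the 16 AT1 markers went from a mean of 9.09 to 9.39 at D0 to 11.7 to 11.9 at D8, with 12 higher and none lower.

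Levels below are on the log2 scale after variance-stabilizing normalization (VSN), fitted to all probes and arrays. Probes of different genes bind with different strength, so levels are not compared between genes. Of the 69 genes, 59 were detected on all 15 arrays, with mean raw signals from 394 for the dimmest to 28869.6 for Cox6a1. The probes of Ndufb4 and Ndufs4 were detected on no array. Ndufs6-ps1 is annotated as a pseudogene. Ndufa10 and Ndufa10l1 are near-identical copies whose probes may share signal, so their values are uncertain. Probes for the 13 subunits encoded by mitochondrial DNA, for the isoforms Cox4i2, Cox6b2, Cox7a1 and Ndufa4l2 and for the inhibitor Atp5if1 were not analysed here.

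The regulatory sequence next to the start of these genes is shown for 4 members that rose in culture and whose promoter held a match to the motifs below, because promoters of respiratory chain genes are known to carry sites for nuclear respiratory factors. In mammals the nuclear respiratory factors NRF1 and NRF2, the latter an ETS-family protein, and YY1 are known activators of such genes. The 250 bases before the RefSeq start of each gene (GRCr8) were searched on both strands for GCGCANGCG (NRF1), CCGGAAG (the ETS site bound by NRF2) and ATGGCGGC (YY1), and 60 of the 69 members had a promoter in the table. Capitals mark the matches, read 5′ to 3′ on the strand of the gene, so that a match on the other strand appears as its reverse complement. The promoters are those of Ndufaf1 (chr3:127104021-127104270, minus strand), Ndufs1 (chr9:72073606-72073855, minus strand), Ndufv3 (chr20:9613536-9613785, plus strand) and Sdhd (chr8:59850642-59850891, minus strand).
Ndufaf1: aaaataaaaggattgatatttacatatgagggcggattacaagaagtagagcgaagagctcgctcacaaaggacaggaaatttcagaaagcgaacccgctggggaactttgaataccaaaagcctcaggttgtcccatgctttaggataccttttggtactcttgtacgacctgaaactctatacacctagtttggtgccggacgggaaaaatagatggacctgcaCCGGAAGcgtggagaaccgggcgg
Ndufs1: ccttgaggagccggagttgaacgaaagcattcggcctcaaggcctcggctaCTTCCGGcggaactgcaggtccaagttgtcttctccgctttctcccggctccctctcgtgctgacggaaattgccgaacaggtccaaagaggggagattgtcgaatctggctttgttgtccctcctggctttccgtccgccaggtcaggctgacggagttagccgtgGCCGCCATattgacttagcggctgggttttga
Ndufv3: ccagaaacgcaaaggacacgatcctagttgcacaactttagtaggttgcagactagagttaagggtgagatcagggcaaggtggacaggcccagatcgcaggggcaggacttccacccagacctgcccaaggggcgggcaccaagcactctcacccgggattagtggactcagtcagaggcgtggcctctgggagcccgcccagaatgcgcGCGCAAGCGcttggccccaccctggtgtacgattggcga
Sdhd: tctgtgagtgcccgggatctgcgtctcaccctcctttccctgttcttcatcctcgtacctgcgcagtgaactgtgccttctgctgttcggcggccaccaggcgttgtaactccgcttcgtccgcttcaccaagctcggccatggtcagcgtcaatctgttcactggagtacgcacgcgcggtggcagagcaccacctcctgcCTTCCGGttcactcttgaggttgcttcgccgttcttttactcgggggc

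In Ndufaf1 the ETS match lay 24 to 18 bases before the start, and in Sdhd it lay 48 to 42 bases before it on the other strand. Ndufs1 held an ETS match 199 to 193 bases and a YY1 match 32 to 25 bases before the start, both on the other strand. Ndufv3 held the NRF1 match, 39 to 31 bases before the start. Over the 60 member promoters, 16 (26.7%) held the NRF1 letters, 16 (26.7%) the ETS letters and 2 (3.33%) the YY1 letters. Among the 10976 genes with a named probe and a promoter these shares were 8.7%, 11.1% and 1.57%. With a C added at the 3′ end of the NRF1 letters, 12 members (20%) and 6.56% of the 10976 genes held a match. The letters, first searched with that C, were shortened after its counts were known. Any of the 3 motifs was present in 30 members (50%), against 19.3% of the 10976 genes. GGGCGG, the letters of the common SP1 site, was in 38.3% of member promoters and in 46.9% of all. Of the 15 called members with a promoter, 7 held the ETS letters, 1 the NRF1 letters and 2 the YY1 letters, and of the 45 not called 9, 15 and 0 did. At least 1 of the 3 motifs was in 9 of the 15 called and 21 of the 45 not called, and 6 of the called members, among them Ndufb3, Ndufb6 and Atp5mc1, held none. A match is a description of letters and not evidence of binding.

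Between D0 and D2, 13 of the 69 genes rose and none fell (limma, adjusted p of at most 0.05 over 22523 probes). The risers were 7 complex I subunits, 2 complex I assembly factors, Sdhb of complex II and 3 complex V genes, and no gene of complexes III or IV passed the test. That is 18.8% of the members, against 10.3% of all probes called higher, while 8.25% of all probes were called lower. Members are bright, and among the 6601 probes detected on every array 22% were higher and 15.2% lower. On that background the 11 of 59 always-detected members that rose (18.6%) were no larger a share than the rest of the array, and the difference lay in the lower calls, of which there were none. By an unadjusted p under 0.05, 17 members were higher and 2 lower between D0 and D2, against 27.7% of all probes in either direction.

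Between D0 and D8, 10 members rose and 1, Ndufb11, fell. All probes were called higher in 9.91% and lower in 8.1% of cases, and those detected on every array in 20.8% and 14.3%, against 15.3% higher and 1.69% lower among the 59 always-detected members. D2 and D8 were each set against the same 3 D0 arrays, so the calls share those arrays. Counting either comparison, 16 genes were called. Standard errors of a change ran from 0.16 to 0.62, with a median of 0.21, so a change well under 0.5 could not pass the test at this number of arrays.

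After D2 no member was called in any step by limma. Between D2 and D4 the smallest adjusted p was 0.267, for Sdhd, while 0.755% of all probes were called higher and 0.639% lower. By an unadjusted p under 0.05, 1 member was higher and none lower, against 9.71% of all probes in either direction. Between D4 and D6 and between D6 and D8 no probe of the array was called in either direction (0% of all probes). Unadjusted, 2 members and no member were higher and none lower, against 1.93% of all probes in either direction in each step. From D2 to D8 the smallest adjusted p was 0.171, for Ndufaf1, while 1.16% of all probes were called higher and 1.42% lower. Unadjusted, 2 members were higher and 2 lower, against 12% of all probes in either direction. An F test over the 5 days called 10 members, namely Ndufs1, Ndufs8, Ndufa8, Ndufb6, Ndufb7, Ndufv3, Ndufaf1, Sdhd, Cox6a2 and Atp5mc1. This is 14.5% of the members, against 18.2% of all probes, and the share among probes detected on every array was not counted.

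**Figure D1:**
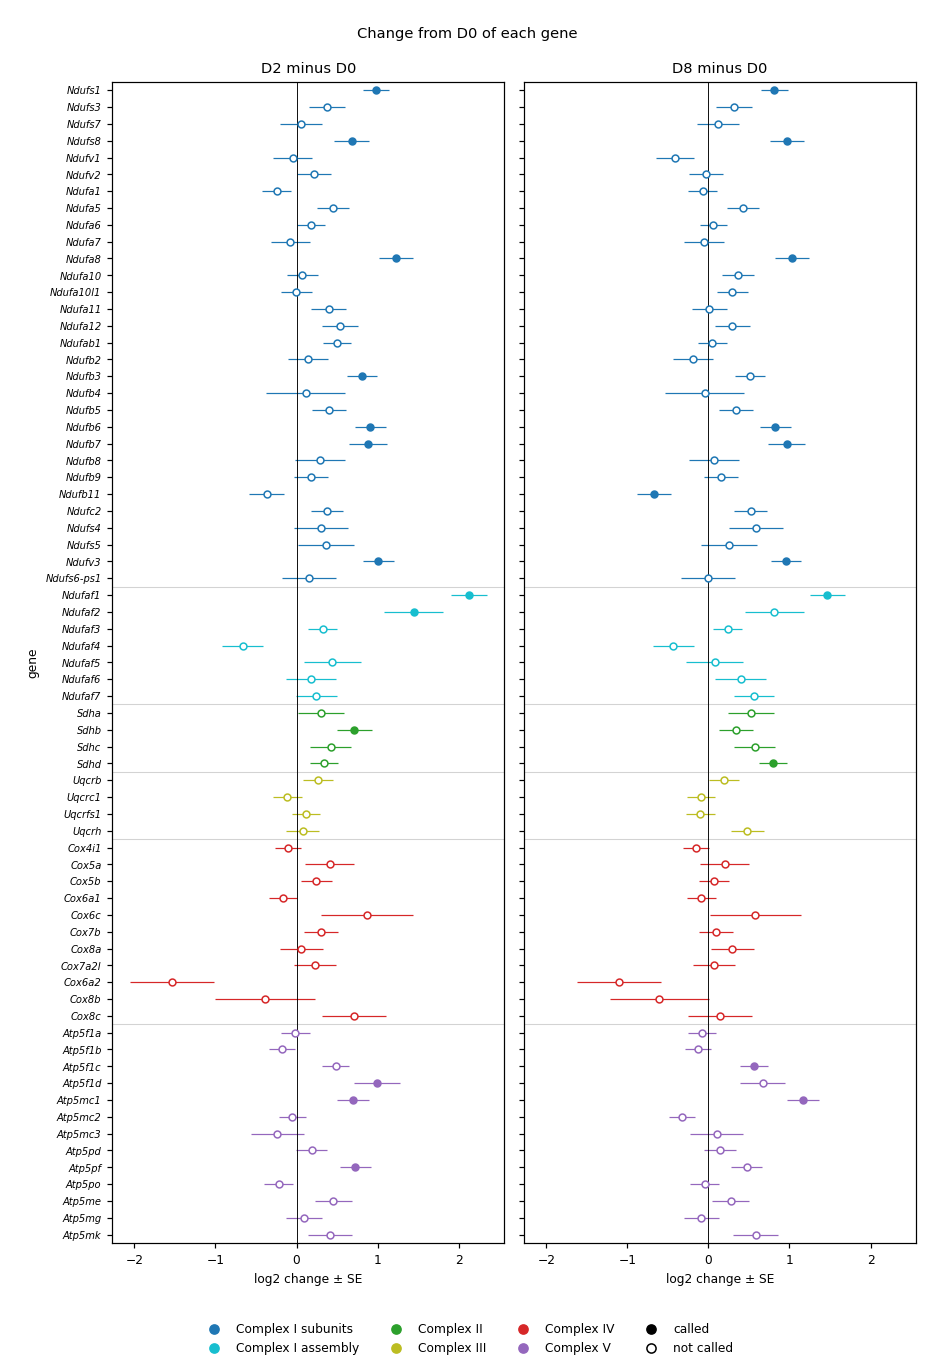
Log2 change of each of the 69 genes from D0 to D2 (left) and from D0 to D8 (right), with bars of ± 1 SE from limma, colours for the groups and filled points for genes called at an adjusted p of at most 0.05. The called genes lie to the right of 0 except Ndufb11 at D8, and no complex III or IV gene is filled.

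The largest change among the members belonged to Ndufaf1, a chaperone that assembles the membrane arm of complex I. Its level was 6.83, 7.53 and 6.64 on the 3 D0 arrays and 9.22, 9.06 and 9.09 at D2. It was then 8.84, 8.69 and 8.63 at D4, 8.70, 8.55 and 8.44 at D6 and 8.49, 8.41 and 8.49 at D8. No D0 array overlapped any later array, and the level at D2 was the highest of the 5 days. The rise was 2.13 ± 0.22 (log2, SE, 4.37-fold, limma adjusted p = 7.44e-06) at D2 and 1.47 ± 0.22 (2.77-fold, adjusted p = 0.000203) at D8. Its probe was detected on 2 of the 3 D0 arrays and on every later array. D8 lay below D2 without overlap, by 0.66 on the log2 scale, which did not pass (adjusted p = 0.171). Within slide 1 alone the rise to D2 was 1.96.

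Ndufaf2, an assembly factor related to the accessory subunit Ndufa12, was at 6.09, 6.68 and 5.33 at D0 and at 7.56, 7.59 and 7.29 at D2. The days did not overlap, and the difference of the measured means, 1.45 ± 0.36 (SE), passed (adjusted p = 0.0112), with the probe detected on only 1 of the 3 D0 arrays. At D8 the arrays read 7.24, 7.26 and 6.02, the array of slide 3 lying among the D0 values, and the change of 0.81 did not pass (adjusted p = 0.163). The probe was dim, detected on 11 of the 15 arrays. The other 5 assembly factors, Ndufaf3 to Ndufaf7, were not called, and their changes from D0 to D2 ran from -0.66 for Ndufaf4 to 0.44 for Ndufaf5. Ndufaf3, the brightest of them, was at 10.67, 10.85 and 10.51 at D0, 11.18, 10.90 and 10.91 at D2 and 10.89, 10.76 and 11.10 at D8.

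Among the complex I subunits, 7 of 30 were higher at D2, and at D8 6 of 30 were higher and 1 lower. Of all probes, 10.3% were higher at D2, and 9.91% higher and 8.1% lower at D8. Among those detected on every array, these shares were 22%, 20.8% and 14.3%. Ndufs1, the largest core subunit, which carries iron-sulfur clusters in the arm that oxidizes NADH, read 10.58, 10.76 and 10.50 at D0. It then read 11.63, 11.67 and 11.49 at D2 and 11.38, 11.45 and 11.45 at D8. The D0 arrays were the lowest of the 15. The change was 0.98 ± 0.17 (SE, 1.97-fold, adjusted p = 0.0006) at D2 and 0.81 ± 0.17 (adjusted p = 0.00264) at D8. Ndufs8, a core iron-sulfur subunit near the ubiquinone end of the chain of clusters, read 11.18, 11.40 and 10.63 at D0, 11.67, 11.97 and 11.61 at D2 and 12.09, 12.07 and 11.94 at D8. Its D0 array on slide 3 was the lowest, and it differed by 0.68 ± 0.21 at D2 (adjusted p = 0.0375) and by 0.97 ± 0.21 at D8 (adjusted p = 0.00453). The other 4 core subunits, Ndufs3, Ndufs7, Ndufv1 and Ndufv2, were not called at either day, with changes at D8 from -0.41 for Ndufv1 to 0.32 for Ndufs3.

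The accessory subunit Ndufa8, on the face of the membrane arm towards the intermembrane space, had the largest change of the subunits. It read 11.05, 10.94 and 10.64 at D0, 12.27, 12.32 and 11.71 at D2 and 12.08, 11.93 and 11.71 at D8. The D2 array of slide 2 was the lowest of its day but still above all D0 arrays. The change was 1.23 ± 0.21 (2.34-fold, adjusted p = 0.000654) at D2 and 1.03 ± 0.21 (adjusted p = 0.00252) at D8. Ndufv3, a small accessory subunit of the NADH-oxidizing part, read 8.44, 8.24 and 8.23 at D0, 9.33, 9.30 and 9.31 at D2 and 9.12, 9.36 and 9.30 at D8. It rose by 1.01 ± 0.19 (adjusted p = 0.0013) at D2 and 0.96 ± 0.19 (adjusted p = 0.00203) at D8, with tight values at D2 (SD 0.01, n = 3). Ndufb7, also an accessory subunit facing the intermembrane space, read 11.52, 12.12 and 11.41 at D0, 12.61, 12.95 and 12.15 at D2 and 12.60, 12.75 and 12.59 at D8. The lowest D2 array was only slightly above the highest D0 array, and the rise was 0.89 ± 0.23 (adjusted p = 0.0147) at D2 and 0.96 ± 0.23 (adjusted p = 0.00871) at D8.

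A pair of further membrane-arm subunits, named after their values were seen, completed the calls. Ndufb6 rose by 0.91 ± 0.19 at D2 (adjusted p = 0.00379) and 0.83 ± 0.19 at D8 (adjusted p = 0.00736). Ndufb3 rose by 0.81 ± 0.19 at D2 (adjusted p = 0.00614), and its change of 0.51 at D8 did not pass (adjusted p = 0.0748). Ndufb11, an accessory subunit of the same arm, went the other way. It read 13.60, 13.54 and 13.11 at D0, 13.09, 13.25 and 12.81 at D2 and 12.86, 12.85 and 12.54 at D8. The slide 3 and slide 2 arrays were the lowest of each of these days, and D8 lay below D0 without overlap. It fell by 0.67 ± 0.21 on the log2 scale at D8 (adjusted p = 0.0419), while the change of -0.37 at D2 did not pass (adjusted p = 0.302). Within slide 1 the D8 change was -0.72 and within slide 3 it was -0.57. Ndufb9, the brightest complex I gene, changed by 0.18 and 0.16 with overlapping days.

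**Figure D2:**
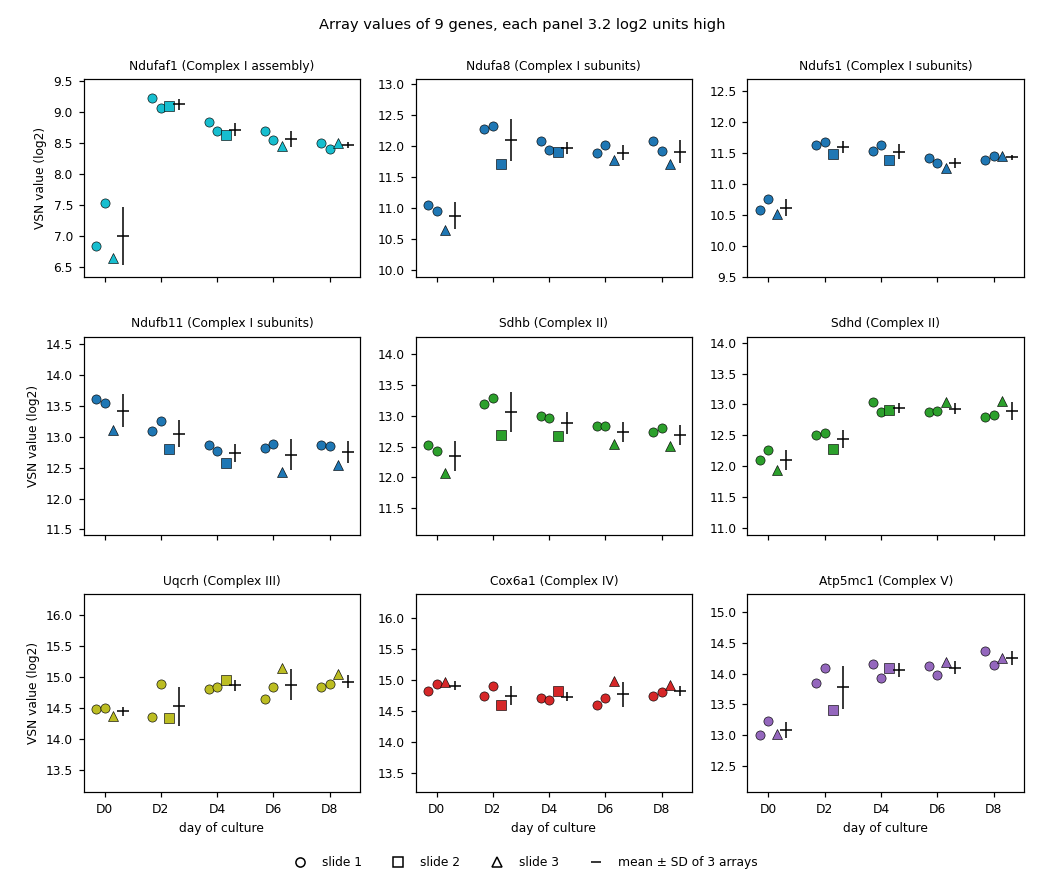
VSN level (log2) of 9 genes on each of the 15 arrays by day of culture, with the slide as the symbol and bars for the mean ± SD of the 3 arrays of a day; each panel spans the same log2 range. Ndufaf1, Ndufa8 and Ndufs1 step up between D0 and D2, Sdhd and Atp5mc1 are highest from D4 on, Ndufb11 is highest at D0, Uqcrh lies higher from D4 on than at D0, and Cox6a1 stays within a narrow range.

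All 4 genes of complex II had a positive change at D2 and at D8, and 1 gene was called at each day, though not the same gene. Of all probes, 10.3% were called higher at D2 and 9.91% at D8, and of those detected on every array 22% and 20.8%. Sdhb, the iron-sulfur subunit, read 12.52, 12.43 and 12.07 at D0, 13.19, 13.28 and 12.69 at D2 and 12.74, 12.80 and 12.51 at D8. It rose by 0.71 ± 0.21 (adjusted p = 0.0313) at D2, when it was highest, and differed by 0.34 at D8 with overlapping arrays (adjusted p = 0.362). Sdhd, a membrane anchor that helps form the ubiquinone site, read 12.10, 12.26 and 11.94 at D0, 12.51, 12.54 and 12.28 at D2, 13.03, 12.87 and 12.92 at D4 and 12.80, 12.82 and 13.05 at D8. Each of the days D2, D4 and D8 lay above D0 without overlap, and D4 and D8 lay above D2. Sdhd rose by 0.79 ± 0.17 (1.73-fold, adjusted p = 0.00455) at D8, and its change of 0.34 at D2 did not pass (adjusted p = 0.227). The further differences of 0.50 from D2 to D4 and 0.45 from D2 to D8 also did not pass (adjusted p = 0.267 and 0.272).

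The flavoprotein Sdha, which oxidizes succinate, read 11.92, 11.82 and 11.10 at D0 and 12.34, 12.38 and 11.68 at D8. The slide 3 array was lowest on both days, and the change of 0.52 ± 0.28 did not pass (adjusted p = 0.264). Within slide 1 the change was 0.49 and within slide 3 it was 0.59. Sdhc, the other anchor, read 12.83, 12.74 and 12.32 at D0 and 13.33, 13.28 and 12.98 at D8, without overlap, and changed by 0.57 ± 0.26 (adjusted p = 0.162).

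None of the 4 measured genes of complex III was called by limma at D2 or D8. Uqcrh, the hinge protein that contacts cytochrome c, was the brightest and read 14.49, 14.50 and 14.37 at D0, 14.35, 14.89 and 14.34 at D2 and 14.85, 14.90 and 15.04 at D8. Every array of D4, D6 and D8, at 14.64 or more, lay above the D0 arrays, and the change of 0.48 ± 0.20 at D8 did not pass (adjusted p = 0.13). The ubiquinone-binding Uqcrb changed by 0.26 at D2 and 0.19 at D8. The core protein Uqcrc1 (-0.12 and -0.09) and the Rieske iron-sulfur protein Uqcrfs1 (0.12 and -0.10) changed by less than their standard errors of 0.18.

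None of the 11 genes of complex IV was called at D2 or D8 either. The 7 that were detected on every array had changes from -0.16 (Cox6a1) to 0.41 (Cox5a) at D2 and from -0.15 (Cox4i1) to 0.30 (Cox8a) at D8. Cox6a1, the isoform found in most tissues, read 14.82, 14.94 and 14.97 at D0 and 14.74, 14.81 and 14.92 at D8, with overlap. Cox6a2, its heart and skeletal muscle isoform, was detected on 11 of the 15 arrays. It read 7.70, 8.45 and 8.56 at D0, 6.49, 6.64 and 6.97 at D2, 5.95, 5.55 and 5.66 at D4, when it was detected on no array, and 8.35, 7.15 and 5.89 at D8. D0 lay above D2 without overlap, and D8 spanned nearly the whole range. The F test over days called Cox6a2 (adjusted p = 0.0298), but its change of -1.54 ± 0.52 at D2 did not pass (adjusted p = 0.0551). Cox8b and Cox8c, known as muscle and testis isoforms, were each detected on 1 array only, whereas the common Cox8a was detected on all.

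Cox7a2l, which joins complexes III and IV into supercomplexes, changed by 0.23 at D2 and 0.07 at D8. Cox6c was not detected at D0 and was detected on all later arrays, but its values tracked the slide. The D0 arrays read 6.23, 6.48 and 6.90, and those of D2 read 6.74, 7.19 and 8.29. On each day the highest array was the one from slide 2 or 3, and the change of 0.87 ± 0.57 did not pass (adjusted p = 0.379). Within slide 1 the change was 0.61.

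Complex V had 3 of 13 genes higher at D2 and 2 of 13 at D8, in different parts of the enzyme. The shares of all probes called higher were 10.3% and 9.91%, and of those detected on every array 22% and 20.8%. Atp5mc1, 1 of the 3 genes for the ring-forming subunit c, read 13.005, 13.23 and 13.02 at D0, 13.84, 14.09 and 13.41 at D2, 14.16, 13.93 and 14.08 at D4 and 14.37, 14.13 and 14.26 at D8. All later arrays lay above the D0 arrays, and D8 lay above D2. It rose by 0.70 ± 0.20 (adjusted p = 0.0231) at D2 and 1.17 ± 0.20 (2.25-fold, adjusted p = 0.000649) at D8. Atp5mc2, another gene for the same mature subunit, read 13.66, 13.44 and 13.57 at D0 and 13.26, 13.18 and 13.25 at D8. It lay lower at D8 without overlap, and its change of -0.33 ± 0.17 did not pass (adjusted p = 0.228). The probe of Atp5mc3 was detected on 1 array.

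In the central stalk, Atp5f1c (subunit gamma) read 12.44, 12.71 and 12.45 at D0 and 13.06, 13.12 and 13.11 at D8, and rose by 0.56 ± 0.17 (adjusted p = 0.0328). Its change of 0.48 at D2 did not pass (adjusted p = 0.0693). Atp5f1d (subunit delta) read 12.41, 12.59 and 11.88 at D0 and 13.23, 13.60 and 13.03 at D2. It rose by 0.99 ± 0.28 (adjusted p = 0.0216) without overlap, and at D8 the change of 0.67 did not pass (adjusted p = 0.128). In the peripheral stalk, Atp5pf (coupling factor 6) read 13.003, 12.82 and 12.83 at D0 and 13.60, 13.96 and 13.28 at D2 and rose by 0.73 ± 0.19 (adjusted p = 0.0134). The catalytic head showed no call. Atp5f1b (subunit beta), the brightest of the complex, read 14.61, 14.85 and 14.64 at D0 and 14.58, 14.58 and 14.56 at D8, and Atp5f1a (subunit alpha) changed by -0.01 at D2 and -0.08 at D8.

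**Figure D3:**
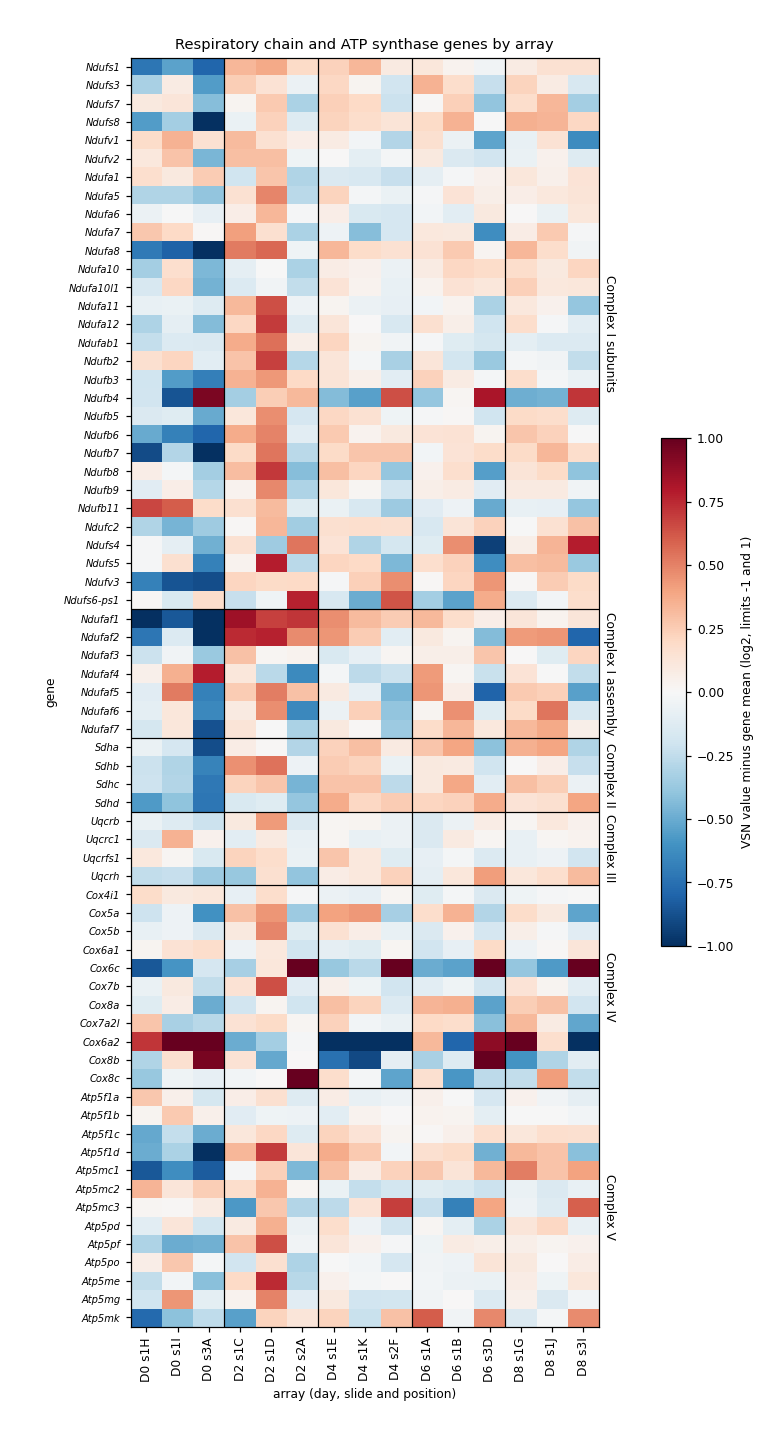
VSN level of each of the 69 genes on each array minus the mean of that gene over the 15 arrays (log2, with full colour from 1 unit either way), with arrays in columns by day and genes in rows by complex. The rows of Ndufs1, Ndufa8 and Ndufaf1 are blue at D0 and red or pale afterwards. Those of Sdhd and Atp5mc1 are blue at D0 and on the D2 array s2A, and red or pale from D4 on. The D2 array s1D is red for most genes.

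Taken as groups, complex II had the largest and complex III the smallest median change on both days. From D0 to D2 the medians over all members were 0.33 for complex I subunits, 0.32 for assembly factors, 0.38 for complex II, 0.10 for complex III, 0.23 for complex IV and 0.19 for complex V. From D0 to D8 they were 0.28, 0.40, 0.55, 0.05, 0.07 and 0.14 in the same order. Over all 69 genes the median was 0.29 at D2, with 53 positive, and 0.20 at D8, with 49 positive. All probes detected on every array had medians of 0.14 and 0.10 themselves, so the always-detected members stood 0.15 and 0.14 above them. Complex II stood 0.24 and 0.44 above them, and complex III 0.05 below them on both days (differences of -0.05).

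The medians of single arrays show how much of this exceeds the spread between arrays. For complex II, the median deviation from each gene's mean was -0.72 to -0.21 on the D0 arrays and -0.14 to 0.22 on the D8 arrays, without overlap, and after taking off the same median for all probes detected on every array it was -0.43 to -0.17 against -0.06 to 0.15. For the complex I subunits the D0 and D8 arrays overlapped before this subtraction and did not overlap after it (-0.15 to -0.03 against 0.02 to 0.05). For complex III they did not overlap before it (-0.18 to -0.06 against -0.03 to 0.06) and overlapped after it. For the assembly factors and complexes IV and V they overlapped both before and after. D2 overlapped D0 in every group by these VSN medians. This depended on the normalization. By neqc and by quantile normalization the D0 arrays lay below the D2 and the D8 arrays without overlap, before and after the subtraction, in every group except the assembly factors. On the values of the authors they did so before the subtraction in every group except the assembly factors and complex IV, and after it for the complex I subunits on both days and for complex II at D8. On a common median, D0 and D8 overlapped before the subtraction in every group, complex II included (-1.23 to -0.34 against -0.46 to 0.30). D2 lay above D0 there without overlap in every group except the assembly factors and complex IV. When scaled on probes detected on every array, D8 lay above D0 before the subtraction for the complex I subunits, assembly factors and complex II. D2 did so for the complex I subunits alone. After the subtraction, under either scaling, D8 lay above D0 for the complex I subunits and complexes II and III, and D2 for complexes III and V. Under VSN, the D0 array s3A was the lowest of the 15 over the 59 genes (-0.39), and all probes detected on every array were also lowest there (-0.29). The D2 array s1D was the highest over the members (0.31), against 0.05 for all probes detected on every array. Without s1D the D2 members stood 0.03 above the other probes in place of 0.15. Without s1D or without s3A the number of members called higher at D2 dropped from 13 to 7. The share of all probes called higher also dropped, from 10.3% to 7.73% without s1D and to 7.94% without s3A.

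**Figure D4:**
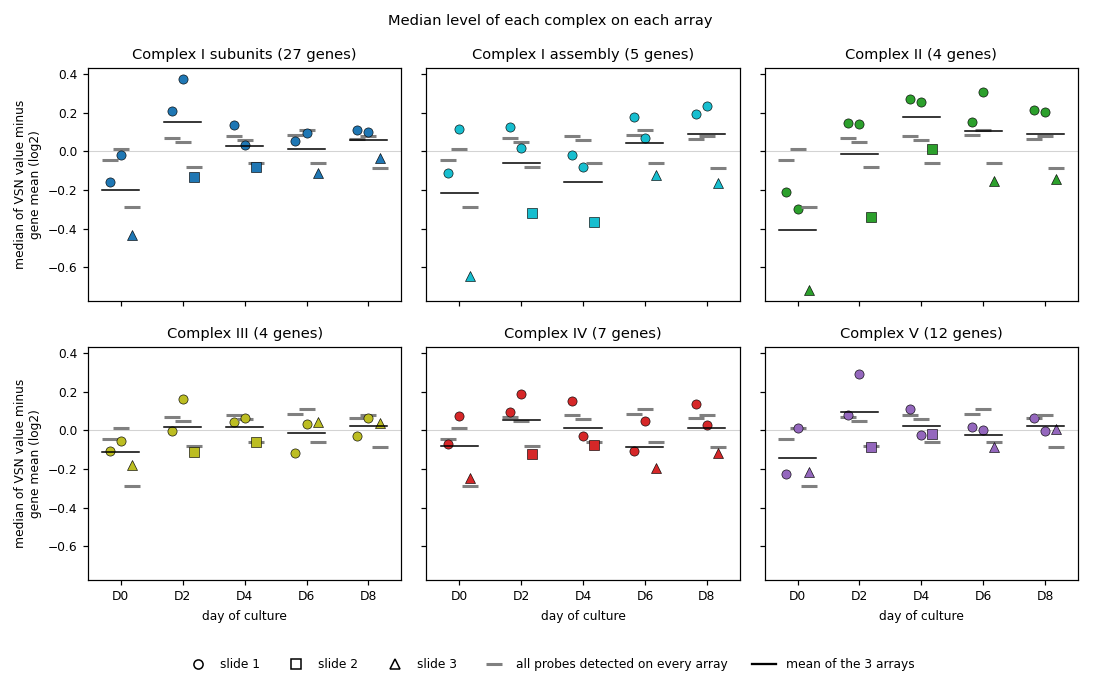
Median over the always-detected genes of each group of the VSN value minus the gene mean (log2) on each array, by day of culture, with the slide as the symbol, black lines for the mean of the 3 arrays of a day and grey dashes for the same median over all 6601 probes detected on every array. Complex II at D0 lies below every D8 array, and the slide 2 and slide 3 arrays are the lowest of their day in most panels, as they are for all probes.

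Leaving out each array in turn, 6 of the 13 calls at D2 held every time, namely Ndufs1, Ndufa8, Ndufb3, Ndufb6, Ndufv3 and Ndufaf1. Those of Ndufs8, Ndufb7, Ndufaf2, Sdhb, Atp5f1d, Atp5mc1 and Atp5pf were each lost without at least 1 array. At D8, 9 of 11 held, and Ndufb11 and Atp5f1c were each lost in 5 of the 6 fits that left out a D0 or a D8 array. On slide 1 alone, 14 members were higher and 1 lower at D2 and 11 were higher and 1 lower at D8. Of all probes, 11.2% were called higher on each day there, and 9.8% at D2 and 9.89% at D8 lower. With slide as a term in the fit, 20 were higher at D2 and 18 at D8, and the share of all probes called higher also went up, to 12.1% and 14.2%.

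Normalization changed how many genes were called, among the members and on the whole array. The values were put on a common scale in 6 ways, namely the refitted VSN, the normalized values of the authors, neqc, log2 with quantile normalization, scaling to a common median of all probes, and scaling on the median of the probes detected on every array. At D2 the members called higher numbered 13, 21, 23, 28, 23 and 11 in that order and those called lower 0, 2, 2, 3, 0 and 2. At D8 the higher calls were 10, 21, 21, 26, 12 and 9 and the lower calls 1, 1, 2, 2, 0 and 1. The share of all probes called higher at D2 was 10.3%, 12.9%, 12%, 12.1%, 12.5% and 6.03% in the same order. At D8 it was 9.91%, 12.8%, 11.8%, 11.9%, 8.48% and 5.98%. The share called lower was 8.25%, 8.81%, 9.44%, 9.45%, 5.34% and 9.29% at D2 and 8.1%, 8.8%, 9.25%, 9.47%, 5.35% and 7.52% at D8.

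Since members are bright, the 6601 probes detected on every array are a closer comparison than all probes. At D2, 18.6%, 32.2%, 35.6%, 44.1%, 35.6% and 16.9% of the 59 always-detected members were higher, again in that order, against 22%, 31.3%, 26.6%, 28%, 29.7% and 17.8% of those probes. At D8 the members' shares were 15.3%, 33.9%, 33.9%, 42.4%, 18.6% and 13.6%, against 20.8%, 31%, 25.6%, 26.9%, 19.6% and 16.3%. Whether the members' share of higher calls lay above or below that of those probes thus depended on the normalization. Lower calls made up at most 3.39% of the members on either day, against 8.42% to 20.5% of those probes at D2 and 8.83% to 19.6% at D8. Most of the 6601 were dimmer than most members, with 5050 in the signal range of the 20 dimmest members and 417 in that of the 20 brightest. Under VSN at D2, 24.7% of the 5050 were higher and 15.3% lower, against 6 and 0 of the 20 dimmest members. Of the 417, 16.8% were higher and 12% lower, against 2 and 0 of the 20 brightest members.

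Scaling to a common median moved the median D2 change of all probes detected on every array to 0.43, from 0.14 under VSN, and scaling on those probes set it near 0, at -0.02. The members moved with it, to a median of 0.60 and 0.15. Relative to the always-detected probes, the always-detected members stood 0.15 to 0.21 higher at D2 and 0.14 to 0.27 higher at D8 over the 6 normalizations. Complex II stood 0.24 to 0.34 higher at D2 and 0.44 to 0.50 higher at D8, and had the highest median at D8 under each of them. The complex I subunits stood 0.23 to 0.33 and 0.19 to 0.28 higher. For complex III the direction depended on the scale, from -0.05 to 0.18 at D2 and from -0.05 to 0.19 at D8, and for complex IV the range was 0.09 to 0.19 at D2 and -0.04 to 0.13 at D8. Quantile normalization and neqc gave the upper values for complex III.

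**Figure D5:**
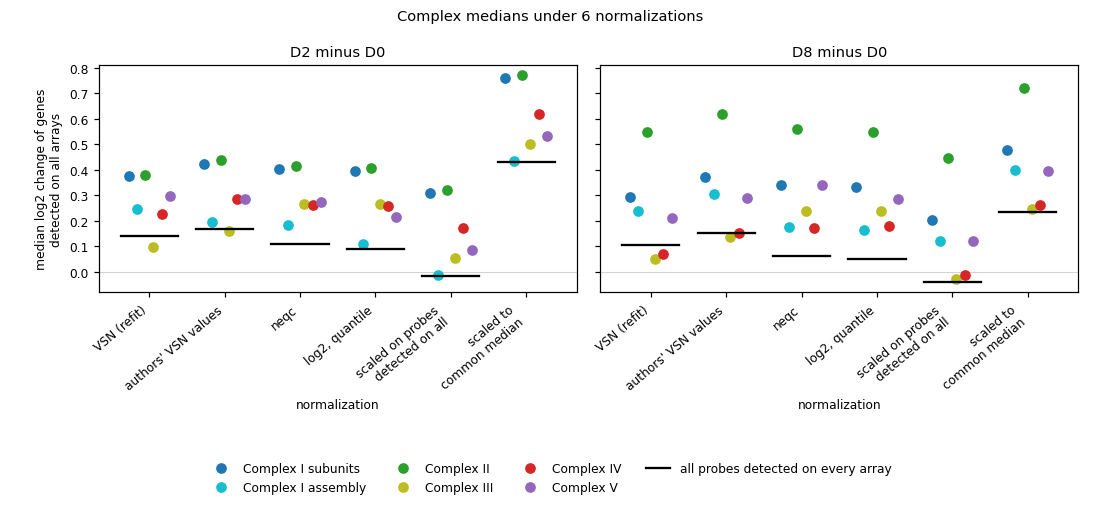
Median log2 change of the always-detected genes of each group from D0 to D2 (left) and from D0 to D8 (right) under each of the 6 normalizations, with black lines for the median of all probes detected on every array. Complex II is the highest point at D8 under each normalization, while the line and all points move up together when arrays are scaled to a common median.

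At D2, 11 genes were called higher under all 6 normalizations and 33 under at least 1. The 11 were Ndufs1, Ndufs8, Ndufa8, Ndufb3, Ndufb6, Ndufb7, Ndufaf1, Sdhb, Atp5f1d, Atp5mc1 and Atp5pf. At D8, 9 genes were called higher under all 6 and 27 under at least 1, and the 9 were Ndufs1, Ndufs8, Ndufa8, Ndufb6, Ndufb7, Ndufaf1, Sdhd, Atp5f1c and Atp5mc1. No complex III or IV gene was among either set. Complex III had 3 genes and complex IV 2 genes called higher at D2 under at least 1 normalization. Those called lower under at least 1 were Ndufb11, Ndufaf4 and Cox6a2 at D2 and Ndufb11 and Ndufv1 at D8, and none was called lower under all 6. How many of all probes were called under all 6 or under at least 1 was not counted. These counts therefore cannot be set against the array. Single normalizations called 17.8% to 31.3% of the probes detected on every array higher at D2 and 16.3% to 31% at D8. The direction of change at D2 was positive under all 6 for 46 genes, negative under all 6 for 4 and varied for 19. At D8 it was positive for 39, negative for 6 and varied for 24. No gene was called in both directions. Ndufaf1 ranged from 1.13 to 2.25 at D2 and Ndufs1 from 0.85 to 1.30.

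The size of change went with the signal to a small degree. In the 20 dimmest of the 59 always-detected genes the median absolute change was 0.39 at D2, against 0.18 in the 20 brightest, and probes of the same signal ranges over the whole array gave 0.59 and 0.35. Across the 59 genes the rank correlation of level with change was -0.23 at both days, as a description only, since all genes share the same arrays.

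Other genes of the pathway were read from lists for comparison. Counts in these lists stand beside 10.3% of all probes called higher and 8.25% lower at D2, and 9.91% and 8.1% at D8. Among probes detected on every array the shares were 22% and 15.2% at D2 and 20.8% and 14.3% at D8. Of 19 assembly factors outside the naming rule, 5 rose and none fell at D2 and 4 rose and none fell at D8. Among them Tmem70, which helps build complex V, rose by 1.17 and 0.95, and Tmem126b, a complex I assembly factor, by 1.34 and 0.89. Sdhaf2, which attaches the flavin to Sdha, rose by 0.69 and 0.76. Of 7 electron carriers and ubiquinone-linked enzymes, 3 rose at D2 and 1 at D8, none falling. Sqor, which feeds electrons from sulfide into the chain, rose by 1.65 and 1.98, and Dhodh of pyrimidine synthesis rose by 1.30 at D2 and stood at 0.11 at D8. Of 59 genes of the mitochondrial ribosome, which translates the subunits encoded by mitochondrial DNA, 16 rose and 1 fell at D2 and 11 rose and 2 fell at D8, with a median change of 0.44 and 0.25.

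The tricarboxylic acid cycle list, which supplies NADH and succinate, had 2 of 13 genes higher at D2 and 1 at D8, with none lower. Idh2 rose by 0.92 and 0.98, and citrate synthase Cs rose by 1.20 at D2 and differed by 0.45 at D8. Of 6 nucleotide carriers and porins, Vdac3 rose by 0.78 and 0.62 and Vdac2 fell by 0.60 and 0.57. Of 15 regulators of mitochondrial biogenesis, 1 rose and 4 fell at D2 and 2 rose and 4 fell at D8. Ppargc1a, a coactivator that drives mitochondrial biogenesis, fell from a mean of 7.99 at D0 to 5.26 at D2 and 5.14 at D8, where its probe was not detected, and Pprc1, a related coactivator, fell by 1.60 and 1.15. Polg2, the accessory subunit of the mitochondrial DNA polymerase, fell by 1.86 and 1.82, while the catalytic subunit Polg rose by 1.09 and 0.87.

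Markers of other cells moved over the same days, and their part in the changes above was not tested. For comparison, 10.3% of all probes were called higher and 8.25% lower at D2, and 9.91% and 8.1% at D8. Of 14 macrophage and leukocyte markers, 0 rose and 1 fell at D2 and 4 rose and 1 fell at D8, with mean levels over the list of 8.07 to 8.80 on the D0 arrays and 9.31 to 9.68 on the D8 arrays. Cd163 and Marco were detected on no array. Of 8 fibroblast and muscle markers, 1 rose at D2 and 3 at D8, and the mean level went from 6.87 to 7.17 at D0 to 7.95 to 8.26 at D2 and 8.71 to 10.8 at D8. Of 6 erythroid markers, 2 fell by D8, and Hbb went from 14.4 at D0 to 11.6 at D2 and 6.14 at D8, while Alas2 was detected on no array. Of 7 airway markers, 1 rose and 4 fell at D2 and 6 fell at D8, and the mean level went from 10.3 to 10.5 at D0 to 6.39 to 6.67 at D8. Of 6 endothelial markers 1, Cldn5, fell, and the other 5 were detected on no array.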

How the data were processed

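The data were bead array signals (RatRef-12, Illumina) of rat cells at 5 days of culture, D0 to D8, with 15 arrays in all. Raw intensity was as the authors exported it from BeadStudio and deposited it, 1 mean bead signal per probe, unnormalized. The same table holds the detection p-value of each probe, as deposited by the authors. The normalized log2 values that the authors deposited were made with VSN through LUMI in R 2.11.1 and served as an alternative. They correlated with the VSN values used here at r of 0.971 to 0.981 per array.

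VSN was refitted (maximum likelihood, 22523 probes on 15 arrays, trimming quantile 0.9, 7 rounds, 5 slices of signal). Detection was called where that p-value was under 0.01. limma 3.58.1 in R 4.3.3, with statmod 1.5.0, fitted 1 mean per day over all arrays, and Benjamini-Hochberg adjustment ran over all probes with a threshold of 0.05. The procedure was tested on simulated data. Symbols came from the probe table of the platform, brought to current RefSeq symbols.

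Named genes were up to 3 called per group and direction with the largest change, if each of the 3 arrays of the brighter day detected them, the brightest gene of each group, the Sdh genes and tissue isoforms with their common isoform, and up to 2 per related list and direction. A few others were named after their values were seen. The members and lists were chosen with earlier results of these data known. Promoters are from RefSeq GRCr8. Alternatives were the 6 normalizations, a detection filter at 0.01 or 0.05 in 3 arrays or more, the slide fitted as a term or random block, arrays of slide 1 by themselves, fits with only the days compared, eBayes with trend and robust set, a stricter adjusted p of 0.01 and leaving out each array. The human arrays of the study were not used here.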

Additional observations from a re-analysis of the deposited data

How the results depend on the processing

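Genes called higher from D0 to D2 numbered 13, against 23 by neqc, 28 by quantile normalization, 21 on the values of the authors, 23 on a common median, 20 with slide as a term, 5 with only the days compared and 6 at an adjusted p of 0.01. The fit of the authors' values with slide as a term, chosen after seeing the data, gave 27. The share of all probes called higher moved too, from 10.3% to 12.1% with slide as a term and 14% on the authors' values with slide. It was 6.22% with only the days compared and 6.37% at an adjusted p of 0.01. Leaving out 1 array gave 7 to 18 genes, with 7 both without D0 replicate 3 (array s3A) and without D2 replicate 2 (array s1D). In those fits 7.53% to 10.4% of all probes were called higher. Genes called lower were 0, against 3 by quantile normalization and 2 by neqc, the values of the authors, scaling on probes detected on all arrays and either detection filter. They were 1 with slide as a random block, slide 1 alone, only the days compared, trend and robust set, or the values of the authors with slide. All probes called lower were 8.81% to 9.45% under the normalizations just named. With the filters at 0.01 and 0.05, 18.3% and 16% of the probes kept were called lower. In the fits with 1 lower call the shares were 10.1%, 9.8%, 5.94%, 8.71% and 10.1% in the order named.

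From D2 to D4, genes called higher were 0, against 1 by neqc and on the values of the authors with slide and 2 by quantile normalization. The shares of all probes called higher were 1.52%, 3.74% and 1.87% in that order. From D2 to D8 the higher calls were 2 by quantile normalization and on the values of the authors with slide. The lower calls were 1 by neqc and with the stricter detection filter, 2 on the values of the authors and 3 by quantile normalization and on the values of the authors with slide. In the same order, 2.42% and 4% of all probes were called higher, and 2.46%, 5.42%, 2.49%, 2.91% and 3.59% lower. From D0 to D8 the 10 higher calls became 21 by neqc and on the values of the authors, 26 by quantile normalization, 18 with slide as a term or random block, 4 with only the days compared and 27 on the values of the authors with slide. The share of all probes called higher moved from 9.91% to 14.2% with slide as a term and 13.9% with a random block. It was 5.75% with only the days compared and 16% on the values of the authors with slide. Without 1 array the higher calls were 9 to 11, with 7.55% to 10.2% of all probes called higher. The 1 lower call, Ndufb11, became 2 by neqc, quantile normalization and the authors' values with slide, and 0 on a common median, with only the days compared or at an adjusted p of 0.01. All probes called lower were 9.25%, 9.47%, 11.8%, 5.35%, 5.6% and 5.62% in that order. Leaving out 1 array gave 0 to 1 lower calls, with 6.8% to 7.75% of all probes called lower. Ndufb11 kept its call only without s3A, and the 1 lower call without s1G of D8 was Cox6a2. On a common median the median change of all members was 0.60 at D2 and, from D2 to D8, -0.24.

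Over all 69 members, 0 to 12 signs per alternative turned at D2 and 0 to 14 at D8, none of them for a gene called in either fit. For the 28 members followed singly, the turns are given here, those without 1 array as ranges. At D2 they included Ndufb9 (-0.028) and Uqcrh (-0.10) without array s1D and Ndufb11 (0.040) on a common median. Cox6a1 was at 0.17 by neqc, 0.18 by quantile normalization and 0.25 on a common median, and Atp5f1b at 0.10, 0.11 and 0.23. Leaving out 1 array gave -0.028 to 0.37 for Ndufb9 and -0.10 to 0.17 for Uqcrh. Cox8a was at -0.057 with slide as a term, -0.058 on slide 1, -0.0068 with a random block, -0.015 without s1D and -0.016 on the values of the authors with slide, and without 1 array at -0.099 (without s3A) to 0.19. On the authors' values with slide, Cox8b was at 0.041, and on probes detected on all arrays Cox8c was at -0.17. At D8, Cox6a1 was at 0.17, 0.18 and 0.11 by neqc, quantile normalization and a common median and at 0.0011 on the values of the authors with and without slide. Atp5f1b was at 0.16, 0.16 and 0.073 by the same 3. Cox7a2l was at -0.014 on probes detected on all arrays and, without 1 array, at -0.11 (without D8 replicate 1) to 0.31, below 0 also without D0 replicate 2 or 3. Cox8c was at -0.21 on probes detected on all arrays and, without 1 array, at -0.079 (without D8 replicate 2) to 0.26. The cause of these shifts was not tested, except that fits on the days compared use fewer arrays. Since each gene had 1 probe, other rules for choosing among probes gave no separate value. No paired analysis was possible because the labels carry no replicate numbers. Dim probes, such as those of Ndufb4, Ndufs4, Cox8b, Cox8c and Atp5mc3, were not well above background, and a change in them was not detectable at this signal.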
